A study of Mus musculus with 14 samples.

Results

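Wild-type mice fed a vitamin A deficient diet were compared with wild-type mice fed regular chow by RNA sequencing of kidney cortex. The comparison comprised 6 of the 14 libraries of the study, chosen by genotype and diet: 3 of wild type on chow (WT 1 to 3) and 3 of the same genotype on the deficient diet (WT-VAD 1 to 3). All mice had a C57BL/6 background, began their diet 2 weeks after weaning and were killed 24 weeks later, and the labels call the libraries biological replicates. The other 8 libraries came from mice carrying the transgene GGT-HIF1A_M3, called TRACK, a form of HIF1A that is always active and is driven by the GGT promoter, on chow (TRACK 1 to 4) or on the deficient diet (TRACK-VAD 1 to 4). They served here to estimate the spread between libraries and to give the same diet contrast in another genotype. The sample records place WT, TRACK and TRACK-VAD 1 to 3 in lane 5, and WT-VAD and TRACK-VAD 4 in lane 6. Diet and lane therefore cannot be told apart within wild type.

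Vitamin A travels in blood as retinol, bound to retinol-binding protein and transthyretin, and tissues oxidise it to retinaldehyde and then to retinoic acid. Retinoic acid acts through the nuclear receptors RAR and RXR, and CYP26 enzymes break it down, so that genes of CYP26 enzymes are at once targets and brakes of the pathway. Proximal tubule cells recover filtered retinol-binding protein through the receptors megalin and cubilin. The kidney also holds a circadian clock, in which BMAL1 (gene Arntl) with CLOCK or NPAS2 switches on the genes of repressors and output factors, and the REV-ERB nuclear receptors in turn repress Arntl.

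Levels are given as deposited FPKM, a read density per transcript length and library size, divided by a scale factor per library (scaled FPKM). Differences are WT-VAD minus WT on log2(scaled FPKM + 1), with the standard error (SE) of limma's moderated test, and group means are given with the SD over 3 libraries. A gene was called changed at a Benjamini-Hochberg adjusted p of at most 0.05 over the 12251 genes tested, and every adjusted p below is from limma unless the authors' table is named. The SE and p-values rest on a spread between libraries estimated over all 14, with TRACK and TRACK-VAD included. They do not measure the spread of the 6 wild-type libraries alone. Absolute depth is unknown because the table holds no counts; relative depth was 0.938 to 1.26 in WT and 0.843 to 1.07 in WT-VAD. Gpx3, the gene of the plasma glutathione peroxidase made by the proximal tubule, took 64.7 to 71.2% of the summed FPKM. This is a share of read density, and its share of reads or of RNA cannot be given without counts. Defining genes of the tubule were high in all 6 libraries, with Slc34a1 of the proximal tubule at 1146 to 1935 scaled FPKM and Umod of the loop of Henle at 1303 to 1629. The other defining proximal genes differed in opposite directions without overlap, and neither was called. Slc5a2 was at 319 to 477 in WT and 211 to 275 in WT-VAD, and Lrp2, the gene of megalin, at 72.1 to 85.1 and 91.3 to 100.4.

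Few genes were called between WT-VAD and WT in the main fit, where diet and lane coincide. Of 12251 genes, 63 were called (0.514%), 27 higher (0.22%) and 36 lower (0.294%) in WT-VAD, while 1245 (10.2%) had an unadjusted p of at most 0.05. The count was 112 when the 6 wild-type libraries were fitted alone, with 44 of the 63 among them, and 195 without the TRACK-VAD libraries, with all 63 among them. The called genes that rose included the clock genes Dbp and Ciart, the glucuronosyltransferase Ugt2b37 and the small heat shock protein gene Hspb8. Those that fell included the retinoic acid hydroxylase Cyp26b1, the clock activators Arntl and Npas2, the calcium-binding proteins Calb1 and S100g, and the lactate and pyruvate transporter Slc16a1. The log2 differences had sizes of 0.43 to 2.29 among genes that rose and of 0.40 to 1.67 among genes that fell. In all 63 called genes the libraries of both groups did not overlap, which held for 18.3% of all genes tested.

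The number of calls depended on single libraries. It was 5 without WT 1, 44 without WT 2, 8 without WT 3, 41 without WT-VAD 1, 5 without WT-VAD 2 and 5 without WT-VAD 3. Slc16a1, Dbp, Npas2 and Avpr1a kept their call without each of the 6 libraries, and the other 59 lost it without at least 1. With lane as a further term, which rests on TRACK-VAD 4 against TRACK-VAD 1 to 3, limma called 0 genes, and 1060 had an unadjusted p of at most 0.05. All 63 kept their direction in that fit, and Slc16a1 had the smallest adjusted p among them, 0.0642. The median size of the difference over the 63 was 0.78 with the lane term and 0.83 without it, and the median SE was 0.23 and 0.14. In 7 of the 63 the difference was more than 1.5 times smaller with the lane term, namely S100g, Mif4gd, Bhlhe40, Jam3, Tspan1, Trib2 and Osr2, and in Akap2 it was more than 1.5 times larger. Among the 12188 genes not called, 3763 (30.9%) changed sign with that term. The median size over all genes was 0.11 and the 63 were chosen for their difference, so these results cannot be set against each other.

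The TRACK-VAD libraries that set the lane term differed in more than lane. The summed level of 20 tubular injury genes was 2395 scaled FPKM in TRACK-VAD 1 and 9298 in TRACK-VAD 2, but 939.6 in TRACK-VAD 3, 903 in TRACK-VAD 4 and 1025 to 1363 in TRACK. Proximal tubule genes summed to 48105 and 31799 in TRACK-VAD 1 and 2, 73711 and 72254 in TRACK-VAD 3 and 4, and 59237 to 66279 in TRACK. Macrophage and dendritic cell genes summed to 2413 in TRACK-VAD 2, to 967 to 1009 in the other 3 TRACK-VAD libraries and to 696 to 878 in TRACK. With TRACK-VAD 1 and 2 left out, an alternative chosen after seeing the data, the lane term left 1 gene called, the glucuronosyltransferase gene Ugt2b37, and all 63 kept their direction.

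**Figure D1:**
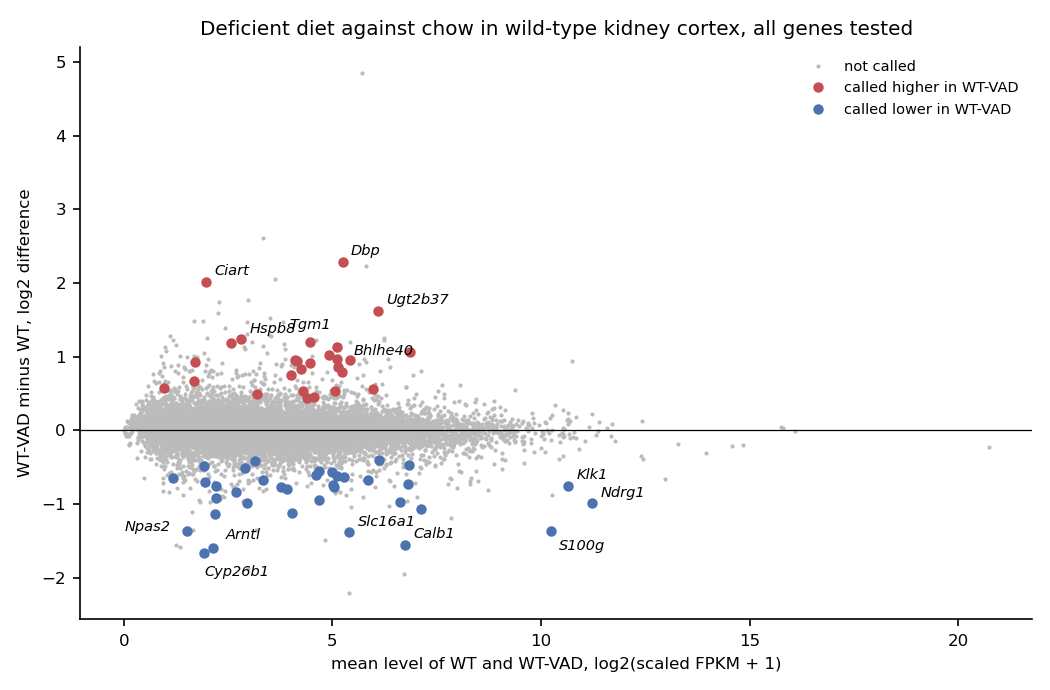
Log2 difference between WT-VAD and WT (vertical axis) against the mean level as log2(scaled FPKM + 1) (horizontal axis), 1 point for each of the 12251 genes tested, with the 27 genes called higher and the 36 called lower in colour. Dbp and Ciart stand at the top of the called genes and Cyp26b1 and Arntl at the bottom, and most of the other points lie close to 0.

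Among retinoid genes, the hydroxylase Cyp26b1 fell. Its level (ENSMUSG00000063415, chromosome 6, 84571414 to 84593908) was 5.34, 3.79 and 5.20 scaled FPKM in WT 1 to 3 and 0.774, 0.402 and 1.35 in WT-VAD 1 to 3. Every WT-VAD library was below every WT library. The mean fell from 4.78 ± 0.858 to 0.843 ± 0.479 scaled FPKM, 5.67-fold lower, with a log2 difference of -1.67 ± 0.24 (adjusted p = 0.0114). The call was lost without WT 1, WT 3 or WT-VAD 2, where the adjusted p reached 0.0838, and the difference stayed between -1.86 and -1.49 without any 1 library. The related genes Cyp26a1 and Cyp26c1 did not reach the level filter of 1 FPKM in 3 libraries, with at most 0.332 and 0.0307 FPKM in any of the 14 libraries.

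Nav2, a neuron navigator gene known to respond to retinoic acid, was the other called gene among 25 tested retinoic acid targets. It stood at 6.70, 7.50 and 7.51 scaled FPKM in WT and at 4.13, 3.61 and 3.16 in WT-VAD. The groups did not overlap and the log2 difference was -0.83 ± 0.11 (adjusted p = 0.00684), a call lost without WT-VAD 2 or WT-VAD 3, where the adjusted p reached 0.0554. Of the 25 targets, 0 rose and 2 fell, against 0.22% and 0.294% of all genes. The median log2 difference of the 25 was -0.067, and that of all genes 0.0067. Dhrs3, which reduces retinaldehyde back to retinol, was at 168, 159.8 and 171 scaled FPKM in WT and 137, 119 and 122 in WT-VAD. These groups did not overlap either, but the difference of -0.40 ± 0.10 was not called (adjusted p = 0.138).

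No other retinoic acid target was called. Pdk4, a kinase that holds back pyruvate oxidation, had a difference of -0.90 ± 0.36 (adjusted p = 0.402), which was 0.30 with the lane term. The homeobox gene Meis2 had one of -0.68 ± 0.31 (adjusted p = 0.473), and Ccnd1, the gene of cyclin D1, one of 0.43 ± 0.17 (adjusted p = 0.38). Rarb, the receptor gene best known as a direct target of retinoic acid, was at 2.65, 2.72 and 2.51 scaled FPKM in WT and 1.98, 2.28 and 2.55 in WT-VAD. Its groups overlapped (difference -0.15 ± 0.095, adjusted p = 0.665). Hnf4a, also on this list, was not tested because it was listed at 0 in WT 1 and WT 2 and stood at 214 to 235 scaled FPKM in the other 4 libraries. The 18 targets with an unadjusted p above 0.05 had differences between -0.39 and 0.93.

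Of 37 tested genes for retinoid transport, storage and metabolism, 0 rose and 1 fell, namely Cyp26b1 (0.22% and 0.294% of all genes), and the median log2 difference was 0.0066. Rbp4, the gene of retinol-binding protein, was at 5.90, 3.31 and 1.83 scaled FPKM in WT and 10.5, 9.15 and 10.1 in WT-VAD. The groups did not overlap, WT 1 was the highest of the chow libraries, and the difference of 1.31 ± 0.37 was not called (adjusted p = 0.189). With the lane term the difference of Rbp4 was 0.16 ± 0.54 (adjusted p = 0.924). Ttr, the gene of transthyretin, was at 49.5, 60.02 and 49.6 scaled FPKM in WT and 121, 102 and 93.6 in WT-VAD. Its groups did not overlap and its difference of 0.97 ± 0.44 was not called (adjusted p = 0.475); with the lane term it was -0.56. Rdh10, which oxidises retinol to retinaldehyde, had a difference of -0.23 ± 0.092 (adjusted p = 0.398), and Akr1c13, an aldo-keto reductase, one of 0.22 ± 0.095 (adjusted p = 0.442). The 31 members with an unadjusted p above 0.05 had differences between -0.31 and 0.40. With the lane term 24 of the 37 kept their sign. The 31 included the retinaldehyde dehydrogenase Aldh1a1 at 34.4 ± 9.16 scaled FPKM in WT and 27.99 ± 9.89 in WT-VAD, and the retinol esterifier Lrat at 1.33 ± 0.257 and 1.01 ± 0.161.

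No retinoid receptor gene was called. Of 19 tested genes of retinoid receptors and their cofactors, 0 rose, 0 fell (0.22% and 0.294% of all genes), and 3 had an unadjusted p of at most 0.05 (10.2% of all genes). Rara was at 5.33 ± 0.585 scaled FPKM in WT and 4.85 ± 0.496 in WT-VAD, and Rxra at 41.2 ± 2.43 and 39.5 ± 0.767, with overlap in both. The 3 were Ppard, whose product pairs with RXR (-0.37 ± 0.11, adjusted p = 0.194), the orphan receptor gene Nr2f6 (-0.36 ± 0.12, adjusted p = 0.262) and the coactivator gene Ncoa3 (0.42 ± 0.14, adjusted p = 0.278). The other 16 had differences between -0.20 and 0.42.

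**Figure D2:**
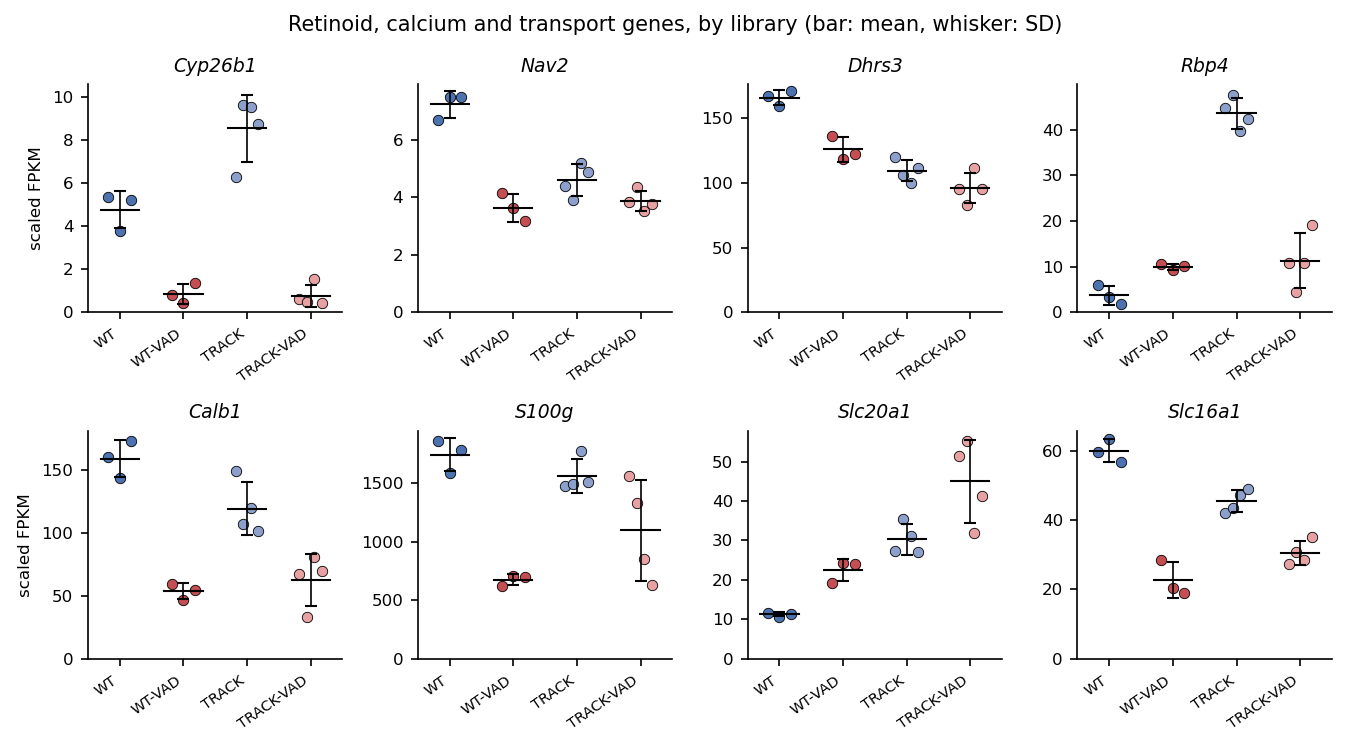
Scaled FPKM (vertical axes, starting at 0) of 8 genes in the 14 libraries of the 4 groups (horizontal axes); points are libraries, bars the group mean and whiskers the SD. Cyp26b1, Nav2, Calb1, S100g and Slc16a1 are lower and Slc20a1 higher in every WT-VAD library than in every WT library; Dhrs3 and Rbp4 do not overlap either but were not called.

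The circadian clock list held more called genes than any of the other 41 lists examined. Of its 21 tested members, 4 rose (against 0.22% of all genes), 2 fell (against 0.294%) and 15 were not called. The groups did not overlap in 14 of the 21 (18.3% of all genes), and the median log2 difference was 0.43 (0.0067 over all genes). With the lane term 18 of the 21 kept their sign. The labels do not give the hour at which the organs were taken. In the promoters of 3 of these genes, shown for the elements through which clock factors act on each other, RefSeq (build GRCm38.p6) gives 250 bases before to 50 bases after the transcription start, 5′ to 3′ on the strand of the gene. The promoter of Ciart, on the minus strand at chr3:95882179-95882478, holds 3 E-boxes (CACGTG, in capitals), the element bound by BMAL1. That of Per3, on the minus strand at chr4:151044616-151044915, holds 2 D-boxes (TTATGNAA on either strand, in capitals), the element bound by DBP. RefSeq lists 2 promoters for Arntl, 1 of them without the next element; the other, on the plus strand at chr7:113207261-113207560, holds 1 AGGTCA element (on either strand, in capitals), the core bound by REV-ERB and shared with RAR and RXR.
Ciart: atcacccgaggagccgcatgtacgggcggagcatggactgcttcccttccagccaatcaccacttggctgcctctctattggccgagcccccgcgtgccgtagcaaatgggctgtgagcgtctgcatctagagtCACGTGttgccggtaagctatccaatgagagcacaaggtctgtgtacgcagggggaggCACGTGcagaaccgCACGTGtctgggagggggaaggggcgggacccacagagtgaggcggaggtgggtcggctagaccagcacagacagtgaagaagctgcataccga
Per3: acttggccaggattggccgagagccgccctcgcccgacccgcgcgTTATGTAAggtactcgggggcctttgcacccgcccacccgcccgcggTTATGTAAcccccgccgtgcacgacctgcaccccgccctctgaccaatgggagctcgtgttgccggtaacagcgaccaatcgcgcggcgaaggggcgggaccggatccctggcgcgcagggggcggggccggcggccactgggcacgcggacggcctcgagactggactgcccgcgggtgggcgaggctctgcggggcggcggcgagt
Arntl: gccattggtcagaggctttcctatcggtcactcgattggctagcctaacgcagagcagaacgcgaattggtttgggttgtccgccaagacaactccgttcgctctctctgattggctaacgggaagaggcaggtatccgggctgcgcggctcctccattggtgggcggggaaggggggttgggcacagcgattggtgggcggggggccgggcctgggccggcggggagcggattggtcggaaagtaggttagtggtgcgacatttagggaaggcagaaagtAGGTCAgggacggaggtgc

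Counted on both strands, CACGTG was present in 7.15% of all 32851 RefSeq promoters of this length and in 6 of the 22 promoters of tested clock genes (27.3%). TTATGNAA was present in 3.38% of all promoters and in 2 of the 22 (9.09%), and AGGTCA in 16.3% and in 5 of the 22 (22.7%). The 22 promoters belong to 17 of the 21 clock genes. The promoters shown were chosen to hold their element. Among called clock genes with a promoter here, Ciart held CACGTG, and Dbp, Npas2, Arntl and Nr1d2 did not. The other clock genes that held it, Per1, Cry1, Tef and Bhlhe41, were not called, and neither was Per3. Of 75 promoters from 50 called genes, 7 held CACGTG (9.33%), 2 held TTATGNAA (2.67%) and 15 held AGGTCA (20.0%). The direct repeat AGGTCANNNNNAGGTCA, a spacing bound by RAR with RXR, was in 0.00913% of all promoters and in 0 of the 75; each such repeat also counts as AGGTCA. A match describes letters in this window only.

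The activator genes Arntl and Npas2 fell. Arntl (ENSMUSG00000055116, chromosome 7, 113207465 to 113314126), the gene of BMAL1, was at 7.06, 5.86 and 3.95 scaled FPKM in WT and at 1.70, 0.853 and 1.001 in WT-VAD. Its mean was 4.75-fold lower on the deficient diet, with a log2 difference of -1.59 ± 0.21 (adjusted p = 0.00684); without WT 1, WT-VAD 2 or WT-VAD 3 the call was lost, with an adjusted p of up to 0.0567. Npas2 (ENSMUSG00000026077, chromosome 1, 39193731 to 39363236), whose product pairs with BMAL1, was at 3.51, 3.53 and 2.31 scaled FPKM in WT and at 0.833, 0.441 and 0.477 in WT-VAD. Neither gene overlapped between the groups. The mean of Npas2 was 5.34-fold lower, with a log2 difference of -1.37 ± 0.17 (adjusted p = 0.00391). Clock, the gene of the other partner of BMAL1, overlapped, at 10.6 ± 1.03 scaled FPKM in WT and 8.89 ± 1.70 in WT-VAD (-0.24 ± 0.15, adjusted p = 0.648).

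Dbp and Ciart rose. Dbp (ENSMUSG00000059824, chromosome 7, 45705088 to 45710203), a transcription factor gene whose product binds D-boxes, was at 11.4, 8.44 and 16.8 scaled FPKM in WT and at 55.00, 68.1 and 62.2 in WT-VAD. All 3 deficient libraries lay far above the highest chow library, and the mean was 5.05-fold higher (log2 difference 2.29 ± 0.26, adjusted p = 0.00306). Ciart (ENSMUSG00000038550, chromosome 3, 95878503 to 95882251), a repressor of BMAL1 with CLOCK, was at 0.494, 0.194 and 0.837 scaled FPKM in WT and at 2.96, 7.44 and 5.53 in WT-VAD. Its mean was 10.4-fold higher (2.02 ± 0.35, adjusted p = 0.021), a call lost without WT 1, WT 2, WT 3, WT-VAD 2 or WT-VAD 3, with an adjusted p of up to 0.115. Tef, of the same D-box family as Dbp, was at 50.6 ± 10.9 scaled FPKM in WT and 88.00 ± 7.53 in WT-VAD, without overlap but not called (0.81 ± 0.22, adjusted p = 0.151).

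Among the repressors, Bhlhe40, whose product competes with BMAL1 at E-boxes, was at 16.8, 22.7 and 22.9 scaled FPKM in WT and at 49.97, 40.97 and 48.9 in WT-VAD. It rose by 1.14 ± 0.18 on the log2 scale (adjusted p = 0.0168), a call lost without WT 1, WT 3, WT-VAD 1, WT-VAD 2 or WT-VAD 3. Its difference was 0.54 ± 0.25 with the lane term and -0.00052 ± 0.14 in TRACK within lane 5. Nr1d2, the gene of REV-ERB beta, rose from 15.2 ± 1.74 to 22.3 ± 2.69 scaled FPKM (0.53 ± 0.10, adjusted p = 0.0306), a call lost without each of the 6 libraries. Per3 was at 1.34, 1.07 and 1.30 scaled FPKM in WT and at 1.74, 4.29 and 4.26 in WT-VAD. WT-VAD 1 was the lowest deficient library of Per3, close to WT, and the gene was not called (0.93 ± 0.20, adjusted p = 0.0645).

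Of the other clock genes, Per1, Per2, Cry1 and Nr1d1 overlapped between the groups. Cry2 (0.43 ± 0.14, adjusted p = 0.251), Bhlhe41 (0.81 ± 0.27, adjusted p = 0.266) and Wee1, a cell cycle kinase gene under clock control (0.50 ± 0.15, adjusted p = 0.209), did not overlap and were not called; the value of Bhlhe41 was -0.059 with the lane term. The same held for the ubiquitin protease gene Usp2 (0.75 ± 0.27, adjusted p = 0.323) and for Nfil3, a repressor at D-boxes (-0.68 ± 0.22, adjusted p = 0.246).

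**Figure D3:**
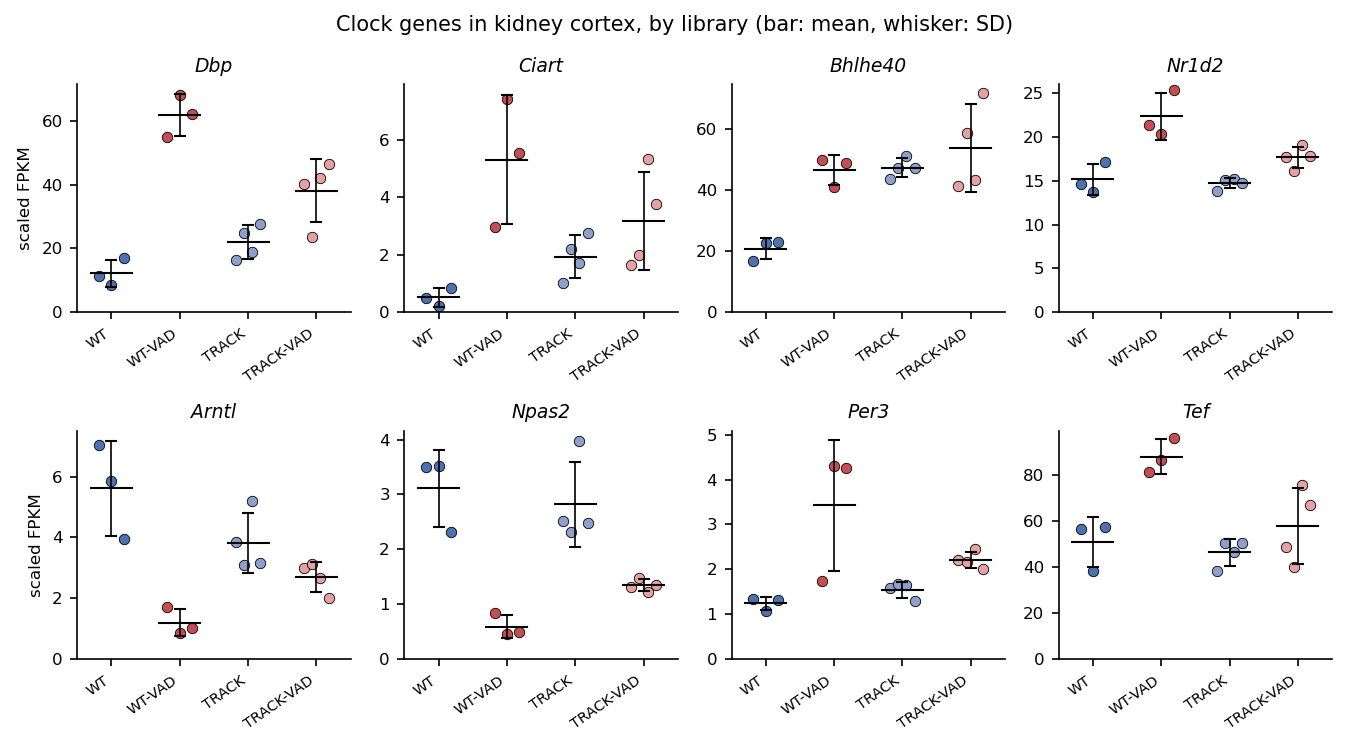
Scaled FPKM (vertical axes, starting at 0) of 8 clock genes in the 14 libraries of the 4 groups (horizontal axes); points are libraries, bars the group mean and whiskers the SD. In wild type, Dbp, Ciart, Bhlhe40, Nr1d2, Per3 and Tef are higher and Arntl and Npas2 lower in every WT-VAD library; Per3 and Tef were not called.

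Both calbindin genes fell. Calb1 (ENSMUSG00000028222, chromosome 4, 15881264 to 15908064), which encodes a calcium buffer of the distal convoluted and connecting tubule, was at 160.4, 143 and 173 scaled FPKM in WT and at 59.5, 46.9 and 54.5 in WT-VAD. Its mean was 2.96-fold lower, with a log2 difference of -1.55 ± 0.26 (adjusted p = 0.0174). S100g (ENSMUSG00000040808, chromosome X, 162961992 to 162964599), which encodes the smaller calbindin, was at 1859, 1588 and 1779.5 scaled FPKM in WT and at 617, 706 and 700.4 in WT-VAD. Both genes separated the groups by more than the spread within them. The mean of S100g was 2.58-fold lower (-1.37 ± 0.25, adjusted p = 0.0272). Calb1 lost its call without WT 1, WT 3, WT-VAD 2 or WT-VAD 3, with an adjusted p of up to 0.0989, and S100g without each of the 6, with up to 0.137; with the lane term the difference of S100g was -0.42.

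Of 19 tested genes of vitamin D and of calcium or phosphate handling, 1 rose and 2 fell (0.22% and 0.294% of all genes), and the median log2 difference was -0.29. The gene that rose was Slc20a1, a sodium-phosphate cotransporter, at 11.6, 10.7 and 11.4 scaled FPKM in WT and 19.2, 24.3 and 23.96 in WT-VAD. Its groups did not overlap (0.94 ± 0.17, adjusted p = 0.0272), and the call was lost without WT 1, WT 2, WT 3, WT-VAD 2 or WT-VAD 3. Cyp27b1, the enzyme that makes active vitamin D, was at 4.84, 1.56 and 2.31 scaled FPKM in WT and at 0.277, 0.243 and 0.144 in WT-VAD. No library overlapped, WT 1 was the highest of all, and the difference of -1.59 ± 0.59 was not called (adjusted p = 0.339); with the lane term it was -0.29. Trpv5, the calcium channel of the distal convoluted and connecting tubule, was at 7.58 ± 1.01 scaled FPKM in WT and 4.74 ± 0.327 in WT-VAD (-0.57 ± 0.14, adjusted p = 0.103). Slc34a3, a phosphate cotransporter of the proximal tubule, was at 50.9 ± 9.24 and 27.1 ± 4.23 (-0.88 ± 0.26, adjusted p = 0.206).

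Of 22 tested genes of the thick ascending limb and distal tubule, 0 rose and 2 fell, Calb1 and Klk1 (0.22% and 0.294% of all genes), and 17 had a difference below 0 (48.2% of all genes). The summed level of the whole list was 5142 to 6026 scaled FPKM in WT and 4297 to 4829 in WT-VAD, without overlap. Without Calb1 and Klk1 the sum was 3301 to 3684 in WT and 2982 to 3476 in WT-VAD, and these ranges overlapped. Slc12a1, the cotransporter gene that defines the thick ascending limb, was at 167 to 175 in WT and at 222, 151.5 and 224 in WT-VAD 1 to 3. Slc12a3, which defines the distal convoluted tubule, was at 249 to 314 in WT and 237 to 254 in WT-VAD, and these ranges overlapped. In tissue RNA, fewer cells of a type and less RNA per cell cannot be told apart, and the part of segment content in the lower calcium genes was not tested. Klk1, the gene of tissue kallikrein, a protease secreted by the connecting tubule, was at 2182, 1698 and 2210.4 scaled FPKM in WT and 1293, 1268 and 1046 in WT-VAD. Every deficient library was lower (-0.75 ± 0.12, adjusted p = 0.0168), although reads of the closely related kallikrein genes may be divided among them. Cldn19, a claudin gene of the thick ascending limb, was at 8.50 ± 0.710 and 13.98 ± 1.25 scaled FPKM (0.66 ± 0.20, adjusted p = 0.212).

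Slc16a1 had the smallest adjusted p of all genes. This gene (ENSMUSG00000032902, chromosome 3, 104638668 to 104658462) of the monocarboxylate transporter MCT1, which carries lactate, pyruvate and ketone bodies, was at 59.8, 63.5 and 56.97 scaled FPKM in WT and at 28.6, 20.6 and 19.01 in WT-VAD. Its mean was 2.64-fold lower, with a log2 difference of -1.38 ± 0.13 (adjusted p = 0.00115). Avpr1a (ENSMUSG00000020123, chromosome 10, 122448499 to 122453453), a vasopressin receptor gene, was at 5.39, 5.46 and 4.23 scaled FPKM in WT and at 2.01, 2.15 and 2.36 in WT-VAD (-0.92 ± 0.10, adjusted p = 0.00306). In both genes the highest WT-VAD library stood well below the lowest WT library.

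Called genes outside the lists above are described by function, in groups made after their values were seen. Of metabolism and mitochondria, the lists of glycolysis, gluconeogenesis, fatty acid oxidation, the TCA cycle, complex I and complexes III to V held 0 calls. These lists had 159 tested members, and 0.514% of all genes tested were called. Clpx, the unfoldase of the mitochondrial ClpXP protease, fell from 186 ± 26.1 to 88.7 ± 15.9 scaled FPKM (-1.07 ± 0.16, adjusted p = 0.014). Pgam2, a phosphoglycerate mutase gene outside the glycolysis list, fell from 69.7 ± 8.50 to 43.1 ± 3.49 (adjusted p = 0.0295). The mitochondrial carrier gene Slc25a30 had a difference of -0.40 ± 0.072 (adjusted p = 0.026). Coq10b, which supports coenzyme Q function, rose from 18.98 ± 0.886 to 40.1 ± 6.57 scaled FPKM (adjusted p = 0.0168). Nmrk1, a kinase gene that feeds NAD synthesis, rose by 0.96 ± 0.17 (adjusted p = 0.0245), Gpt2, a mitochondrial alanine aminotransferase gene, by 0.85 ± 0.14 (adjusted p = 0.0174), and Tfrc, the transferrin receptor gene, by 0.91 ± 0.18 (adjusted p = 0.0468). Stard4, a cholesterol carrier gene, rose by 0.45 ± 0.079 (adjusted p = 0.0226) and was the 1 called gene of 23 tested in the cholesterol list (0.514% of all genes).

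Genes of glucuronidation differed in sign. Ugt2b37 was at 30.5, 31.2 and 35.8 scaled FPKM in WT and 94.98, 103 and 109 in WT-VAD. It was 3.15-fold higher (1.63 ± 0.28, adjusted p = 0.0212), with a call lost without each of the 6 libraries. Its relative Ugt2b34 fell from 16.2 ± 1.58 to 9.07 ± 1.07 scaled FPKM (-0.77 ± 0.11, adjusted p = 0.0122). These genes belong to a family of closely similar copies, so reads may be divided among them. Of 28 tested cytochrome P450 genes of families 1 to 4, 0 were called (0.514% of all genes). Cyp2d12, also of a family of similar copies, was at 167 ± 63.8 scaled FPKM in WT and 42.4 ± 18.6 in WT-VAD (-1.96 ± 0.52, adjusted p = 0.146).

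Lists of stress responses held 1 called gene each or none, where 0.514% of all genes were called. Hspb8 was at 2.92, 3.15 and 3.15 scaled FPKM in WT and 13.2, 7.25 and 6.60 in WT-VAD. It rose by 1.24 ± 0.22 (adjusted p = 0.0238), was highest in WT-VAD 1, and was the 1 called gene of 17 heat shock genes. Ndrg1, known to be induced by hypoxia, was at 3044, 3114 and 3373 scaled FPKM in WT and 1823, 1535 and 1462 in WT-VAD. It fell (-0.99 ± 0.14, adjusted p = 0.0114) and was the 1 called gene of 27 tested HIF targets. In the same list Egln3, a prolyl hydroxylase gene of the HIF pathway, was at 10.8 ± 0.956 and 21.1 ± 2.25 scaled FPKM (0.91 ± 0.20, adjusted p = 0.0739), and Car9, a carbonic anhydrase gene, at 11.1 ± 2.52 and 5.996 ± 1.13 (-0.78 ± 0.20, adjusted p = 0.127). Of 24 tested genes of the integrated stress response, 0 rose and 1 fell, the mTORC1 inhibitor gene Sesn2, from 33.2 ± 6.75 to 16.5 ± 2.08 scaled FPKM (adjusted p = 0.0174). Asns, the asparagine synthetase gene of that list, had a difference of 1.20 ± 0.41 (adjusted p = 0.29). Of 18 endoplasmic reticulum chaperone genes 0 were called and 16 had a difference above 0 (51.8% of all genes), among them Manf (0.52 ± 0.12, adjusted p = 0.0898).

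Several other called genes encode signalling molecules or transcription factors. Osr2, a zinc finger factor gene of kidney development, fell from 5.27 ± 0.398 to 1.86 ± 0.163 scaled FPKM (-1.13 ± 0.19, adjusted p = 0.0174). Angpt1, a ligand of the endothelial receptor TIE2, fell from 4.84 ± 0.466 to 2.44 ± 0.0687 (adjusted p = 0.0195), and Cntfr, the receptor gene of ciliary neurotrophic factor, from 3.42 ± 0.390 to 2.16 ± 0.0680 (adjusted p = 0.0306). Fgf18, a fibroblast growth factor gene, rose from 1.27 ± 0.428 to 3.30 ± 0.291 scaled FPKM (adjusted p = 0.0168). The hedgehog ligand gene Ihh rose from 6.64 ± 0.366 to 9.71 ± 0.552 (adjusted p = 0.0272), and Id1, an inhibitor of helix-loop-helix factors induced by BMP signals, from 22.8 ± 6.98 to 44.6 ± 1.96 (adjusted p = 0.026). The pseudokinase gene Trib2 (0.83 ± 0.14), the mediator subunit gene Med21 (0.57 ± 0.11) and the splicing factor gene Hnrnph1 (1.07 ± 0.20) also rose, and the transcription factor gene Sp3 fell (-0.55 ± 0.087).

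Among adhesion and junction genes, integrin alpha 6 (Itga6) fell from 40.6 ± 4.21 to 23.5 ± 3.996 scaled FPKM (adjusted p = 0.0306), and the junctional molecule gene Jam3 from 18.1 ± 2.53 to 9.97 ± 0.999 (adjusted p = 0.0306). Claudin 1 (Cldn1, -0.68 ± 0.13) and the immunoglobulin family adhesion gene Igsf11 (-0.74 ± 0.13) fell too. Genes of coagulation and protease control differed in sign: tissue factor (F3) rose from 11.04 ± 1.58 to 19.2 ± 2.01 scaled FPKM (adjusted p = 0.0279), while Tfpi2, an inhibitor of serine proteases, fell from 21.3 ± 2.97 to 9.25 ± 0.921 (adjusted p = 0.0212). Protein Z (Proz) fell from 1.80 ± 0.455 to 0.771 ± 0.128 (adjusted p = 0.026). The transglutaminase gene Tgm1 rose from 12.4 ± 1.35 to 29.8 ± 2.13 (adjusted p = 0.0168) and the proprotein convertase gene Pcsk4 from 2.50 ± 0.276 to 7.30 ± 2.68 (adjusted p = 0.021). Folh1, a folate hydrolase gene, fell from 138 ± 14.4 to 83.1 ± 3.96 (adjusted p = 0.0168).

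The remaining called genes are given by their log2 difference. Arhgap27 (0.96), 1700016C15Rik (0.79), 4930522L14Rik (0.67), Mtmr7 (0.58), Pon2 (0.53) and Cys1 (0.43) rose. Nap1l5 (-0.98), Tmem252 (-0.97), A930004D18Rik (-0.70), Tspan1 (-0.64), Mif4gd (-0.61), Tceal8 (-0.60), Akap2 (-0.56), Sorbs2 (-0.52), Fam63a (-0.46) and Tesk2 (-0.41) fell. Akap2 stood closest to the threshold, with an adjusted p of 0.0494.

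No gene of the collecting duct was called, where 0.514% of all genes were. Of its 21 tested genes, 18 had a difference below 0 (48.2% of all genes), 9 of them with an unadjusted p of at most 0.05 (5.34% of all genes), and the median was -0.30. The sodium channel subunit gene Scnn1a was at 40.1 ± 3.34 scaled FPKM in WT and 28.01 ± 1.76 in WT-VAD (-0.50 ± 0.22, adjusted p = 0.446). Of intercalated cells, the anion exchanger gene Slc26a4 was at 34.9 ± 6.58 and 23.9 ± 1.55 (-0.51 ± 0.22, adjusted p = 0.444), and the ammonia transporter gene Rhbg at 16.2 ± 1.21 and 10.4 ± 1.13 (-0.59 ± 0.20, adjusted p = 0.277). The summed level of the list overlapped, at 748 to 964 scaled FPKM in WT and 755 to 827 in WT-VAD. So did Aqp2, the water channel gene that defines principal cells, at 34.1 to 86.8 and 65.02 to 82.5.

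Of 12 podocyte genes, 0 were called (0.514% of all genes) and 9 had a difference below 0 (48.2% of all genes). Their summed level was 163 to 179.6 scaled FPKM in WT and 137 to 155 in WT-VAD, without overlap. Cdkn1c, which encodes an inhibitor of cyclin-dependent kinases, was at 16.97 ± 0.310 and 11.6 ± 1.85 scaled FPKM (-0.52 ± 0.11, adjusted p = 0.0701). The lists of proximal tubule, endothelial, macrophage, lymphocyte, fibroblast, red blood cell, adipocyte, urothelium and tubular injury genes held 0 called members. Each had 6 to 25 tested members, and 0.514% of all genes tested were called. Summed levels did not overlap for tubular injury genes, at 763 to 982 scaled FPKM in WT and 571 to 629 in WT-VAD, nor for lymphocyte genes, at 19.5 to 29.3 in WT and 33.2 to 50.6 in WT-VAD, where the T cell gene Cd3e was at 0.126 to 0.408, nor for adipocyte genes, at 84.2 to 88.7 and 90.1 to 103, where the defining gene Adipoq was at 0 to 0.772.

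**Figure D4:**
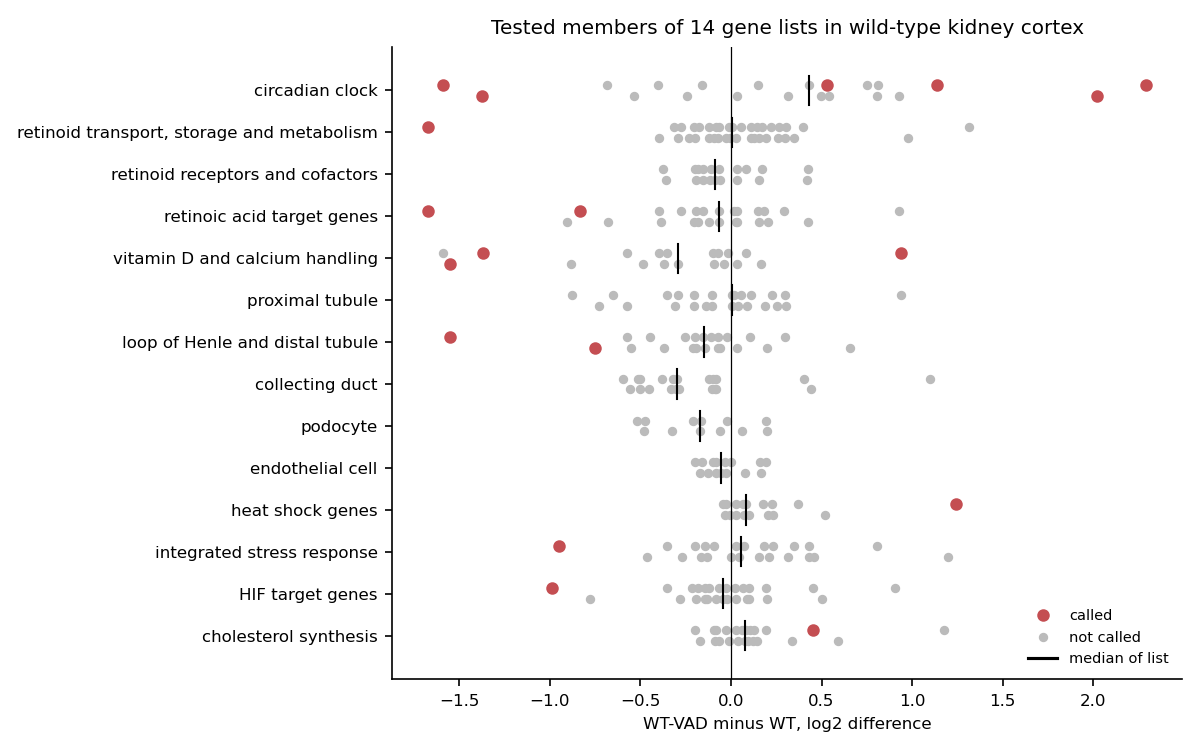
Log2 difference between WT-VAD and WT of the tested members of 14 gene lists (horizontal axis, 1 row for each list); each point is a gene, red where called, and the bar marks the median of the list. The clock list holds 6 called genes on both sides of 0 with its median at 0.43, and the collecting duct list has its median at -0.30 with 0 called.

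TRACK mice gave a diet contrast with both arms in lane 5, in which TRACK-VAD 1 and 2 carried the injury, proximal tubule and macrophage levels given above; the part of these in the values below was not tested. Between TRACK-VAD 1 to 3 and TRACK 1 to 4, limma called 56 genes (0.457%), 4 higher (0.0327%) and 52 lower (0.424%). This count was 29 without TRACK 2, 32 without TRACK 3, 26 without TRACK 4, 27 without TRACK-VAD 1, 28 without TRACK-VAD 2 and 2634 without TRACK-VAD 3. Of the 63 genes called in wild type, 52 had the same sign there, 21 of the 27 that rose and 31 of the 36 that fell; over all genes tested the same sign held for 53%. The 52 became 50 without TRACK-VAD 3 and was 52 with TRACK-VAD 3 as the sole deficient library. An unadjusted p of at most 0.05 was found for 27 of the 63, all with the same sign, against 16.5% of all genes, and 18 of the 63 did not overlap, against 9.51%. The median log2 difference in TRACK was 0.23 over the genes that rose in wild type and -0.26 over those that fell, beside 0.93 and -0.77 in wild type. Limma called 3 of the 63 in this contrast, Cyp26b1, Slc16a1 and Avpr1a.

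Cyp26b1 was at 6.32, 9.63, 9.54 and 8.76 scaled FPKM in TRACK 1 to 4 and at 0.599, 0.451, 1.53 and 0.428 in TRACK-VAD 1 to 4. All deficient libraries lay below all chow libraries, with a lane 5 difference of -2.39 ± 0.22 (adjusted p = 0.000403). Slc16a1 was at 42.1 to 48.9 in TRACK and 27.3 to 35.2 in TRACK-VAD, also without overlap (-0.63 ± 0.12, adjusted p = 0.0391). Here and below, ranges cover TRACK-VAD 1 to 4, while the differences beside them leave out TRACK-VAD 4. Avpr1a was at 3.66 to 4.67 and 2.48 to 2.71 scaled FPKM, again without overlap (-0.56 ± 0.10, adjusted p = 0.0326). Calb1 was at 101 to 149 in TRACK and 32.8 to 80.7 in TRACK-VAD, without overlap but not called (-1.05 ± 0.24, adjusted p = 0.0992).

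Of the clock genes, Npas2 was at 2.31 to 3.98 scaled FPKM in TRACK and 1.22 to 1.48 in TRACK-VAD, without overlap and not called (lane 5 difference -0.69 ± 0.16, adjusted p = 0.104). Arntl was at 3.09 to 5.20 and 1.99 to 3.13, with overlap (-0.28 ± 0.19, adjusted p = 0.456), and Dbp at 16.4 to 27.7 and 23.7 to 46.4, with overlap (0.65 ± 0.24, adjusted p = 0.232). The lowest deficient value of Arntl, 1.99, and the highest of Dbp, 46.4, were those of TRACK-VAD 4 in lane 6. Within lane 5 the deficient libraries were at 2.66 to 3.13 for Arntl and 23.7 to 41.9 for Dbp. Of the 6 called clock genes, 5 had the same sign in TRACK within lane 5 as in wild type, and of all 21 clock genes 14 (53% of all genes). The median log2 difference of the 21 was -0.081 in TRACK within lane 5, beside 0.43 in wild type. The test of the difference between the diet contrasts of both genotypes called none of the 63 genes (0.00816% of all genes); the smallest adjusted p among them was 0.224, and 54 had an unadjusted p of at most 0.05 (8.07% of all genes). The 63 were chosen by their difference in wild type, which enters this test, so the count is a description.

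The diet differences of Rbp4 had opposite signs in the genotypes in the fit without lane. TRACK 1 to 4 were at 44.9, 47.7, 39.7 and 42.4 scaled FPKM, and TRACK-VAD 1 to 4 at 10.7, 4.39, 10.8 and 19.2. No library overlapped, and the lane 5 difference was -2.30 ± 0.29 (adjusted p = 0.00445), beside 1.31 ± 0.37 in wild type, or 0.16 ± 0.54 there with the lane term. The difference between both contrasts was 3.32 on the log2 scale and was not called (adjusted p = 0.0747).

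**Figure D5:**
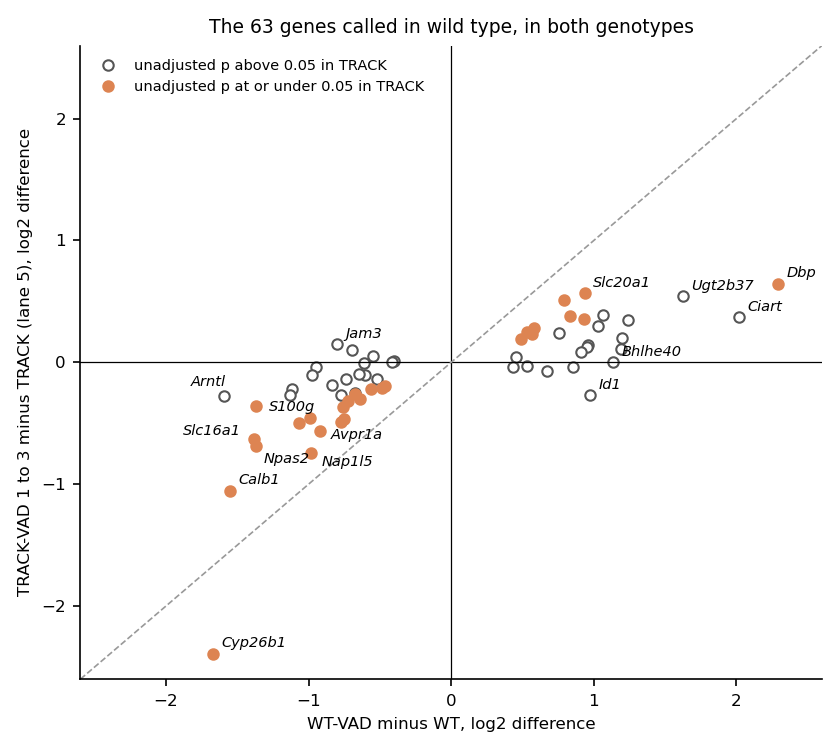
Log2 diet difference of the 63 genes called in wild type, in wild type (horizontal axis) and in TRACK within lane 5 (vertical axis), 1 point for each gene; filled points had an unadjusted p of at most 0.05 in TRACK and the dashed line marks equal differences. Of the 63 points, 52 have the same sign on both axes, and Cyp26b1 is the point farthest from 0 in TRACK.

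The authors' deposited table for WT-VAD against WT, made from the same libraries and so not independent, called 342 of 14193 genes (2.41%) at an adjusted p of at most 0.05, with 132 higher and 210 lower. In the authors' deposited table all 63 genes had the sign found here and 58 were called. The 5 not called in the authors' deposited table were Hnrnph1, Ihh, Cys1, Akap2 and A930004D18Rik; Hnrnph1 had a log2 fold change of 0.10 there, beside 1.07 here. The authors' deposited table called 11 of the 21 clock genes, all with the sign found here, among them Per3 (1.28, adjusted p = 4.84e-06) and Nfil3 (-0.87, adjusted p = 0.0257). For Dhrs3 the authors' deposited table gave -0.42 with an adjusted p of 0.00999, and for Rbp4 0.95 with 0.049.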

How the data were processed

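Total RNA of microdissected kidney cortex was sequenced as 51-base single-end reads, 4 samples to a lane, per the labels' protocols. The authors deposited FPKM per protein-coding gene, and for each pair of groups a table with a signal (the mean normalized count), a log2 fold change and p-values, per the file headers. The submitters' processing notes name DESeq 1.32 and mm9; 99.92% of the loci with a gene ID in GENCODE vM21 overlap that gene, so the coordinates printed are those of the file and lie on GRCm38. For the aligner and the handling of strand, no statement was given in the sources used here. Samples were grouped by genotype and diet; 6 columns that matched no sample were not used.

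Of 22007 gene IDs, 12268 reached 1 FPKM in at least 3 libraries, and 17 were left out because they were listed at 0 in 1 or more libraries although another library of the same group, and at least 7 libraries in all, were at 5 FPKM or more. Libraries were scaled by a trimmed mean of log ratios (outer 30% by ratio and 5% by level left out), and log2(scaled FPKM + 1) was fitted with limma 3.58.1 in R 4.3.3, with 4 group means over 14 libraries and a mean-variance trend. A fold change on this scale understates that of low genes; ratios of means carry no pseudocount. The procedure was tested on simulated data. An exact permutation test of 3 against 3 cannot go below 0.1 and was not used. Figures were drawn with matplotlib 3.10.9. The same replicate number did not pair WT with WT-VAD libraries.

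Genes named were to be the 15 largest called increases and 15 largest decreases, called list members, and all clock and retinoid genes; all 63 called genes are named, retinoid genes above an unadjusted p of 0.05 are mostly given as ranges, Y-linked genes are not described, a few list members are not reported here, and the uncalled genes of other lists were chosen after their values were seen. The members and gene lists were chosen with earlier results of these data known. Alternatives covered scaling, pseudocount, level filter, trend, libraries in the fit, lane, replicate block and each library left out.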

Additional observations from a re-analysis of the deposited data

Results flagged for a closer look

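For selected genes, 18 sets of 4 libraries, each a gene in TRACK or in TRACK-VAD, were checked for a library far from the others. Such a library was found in 3 of the 18. Chance flags about 1 in 20 independent sets, but the 18 come from the same libraries and are not independent. Cyp26b1 was highest in TRACK-VAD 3, at 1.53 scaled FPKM, where the other 3 TRACK-VAD libraries were at 0.428 to 0.599. Npas2 was highest in TRACK 3, at 3.98, where the other 3 TRACK libraries were at 2.31 to 2.52. S100g was highest in TRACK 3, at 1778, where the other 3 were at 1478 to 1506. Groups of 3, WT and WT-VAD among them, were too small for this check.

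Aox1, an aldehyde oxidase gene, was the 1 gene for which the difference between the diet contrasts of wild type and TRACK was called, at 0.98 ± 0.12 on the log2 scale (adjusted p = 0.0173 by limma). In wild type it was at 0.0418, 0.0700 and 0.0779 scaled FPKM in WT and 0.115, 0.179 and 0.193 in WT-VAD, and in TRACK it was at 1.41, 1.323, 1.498 and 1.46 on chow and 0.400, 0.298, 0.275 and 0.385 on the deficient diet. All wild-type values lay below the filter of 1 FPKM, so that the pseudocount of 1 leaves little room for a difference there, and with a pseudocount of 0.1 limma called 0 genes for this difference, with 990 at an unadjusted p of at most 0.05.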

How the results depend on the processing

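None of the 63 called genes changed direction under any alternative run. Their groups did not overlap, so leaving out 1 library or changing the pseudocount could not reverse a sign. Those runs therefore do not test direction. The count of 63 became 40 with no level filter, 112 with the 6 wild-type libraries alone, 0 with lane as a covariate, and 5 to 44 without 1 of the 6 libraries; in alternatives chosen after seeing the data, it was 195 with the TRACK-VAD libraries left out and 1 with lane as a covariate and TRACK-VAD 1 and 2 left out. For all 8 TRACK libraries the count of 19 became 10 with a pseudocount of 0.1, 56 with lane as a covariate, 3 with only the TRACK libraries in the fit, and 8 to 56 without 1 library. For lane 5 the count of 56 became 6 with only the TRACK libraries and 26 to 2634 without 1 library. The difference between the diet contrasts, with 1 gene called, gave 4 with no scaling, 0 with a pseudocount of 0.1, 0 with a filter of 5 FPKM, 0 with lane as a covariate, and 0 to 7 without 1 library. Of the 12188 uncalled genes 3763 changed sign with lane as a covariate; of the 47 of them named in the text and followed through every alternative, those that did were Bhlhe41 (-0.059), Per2 (-0.22), Ttr (-0.56), Pdk4 (0.30) and Aqp4 (-0.34); with TRACK-VAD 1 and 2 also left out they were Bhlhe41 (-0.15), Lrat (0.023) and Rxra (0.024), and Per1 ranged from -0.049 to 0.32 without 1 library. The cause was not tested. Of the same 47 uncalled genes, 9 were called with the 6 wild-type libraries alone. With the TRACK-VAD libraries left out, chosen after seeing the data, 18 of the 47 were called.

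Replicate numbers did not pair the samples: the deviations of same-numbered WT and WT-VAD libraries correlated at 0.014, -0.068 and 0.049 across genes. With the replicate block limma called 45 genes, 43 of the 63 among them, and 7 for all 8 TRACK libraries, 9 for lane 5 and 0 for the difference between the contrasts. Because the files hold no counts, no counting error can be given for low genes such as Ciart and Cyp26b1.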

Other observations

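Several genes outside the groups described above had large differences in wild type without a call, and were chosen after their values were seen. Keg1, of the proximal tubule list, was at 1172 ± 90.1 scaled FPKM in WT and 2262 ± 352 in WT-VAD (SD, n = 3 each; log2 difference 0.94 ± 0.22, adjusted p = 0.0947 by limma). Miox, which encodes the inositol oxygenase of the same tubule segment, was at 1597 ± 298 and 870.3 ± 178 (-0.88 ± 0.21, adjusted p = 0.0966 by limma). Xbp1, a transcription factor gene of the unfolded protein response, was at 57.7 ± 4.73 and 108 ± 30.8 (0.86 ± 0.21, adjusted p = 0.12 by limma). Agt, the angiotensinogen gene, was at 44.9 ± 3.71 and 59.96 ± 2.76 (0.41 ± 0.095, adjusted p = 0.0898 by limma). The collecting duct list held 3 genes with a difference above 0, among them the water channel gene Aqp4 at 3.93 ± 2.28 and 9.001 ± 1.74 (1.10 ± 0.62, adjusted p = 0.612 by limma) and the sodium pump regulator gene Fxyd4 at 27.8 ± 0.870 and 38.1 ± 1.23 (0.44 ± 0.19, adjusted p = 0.448 by limma).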
